A study of Mus musculus with 3 samples.

Results

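The Cyp2c genes listed for this account encode cytochrome P450 enzymes of the mouse liver that oxidise arachidonic acid and many drugs. The list held 10 symbols (Cyp2c29, Cyp2c37, Cyp2c38, Cyp2c39, Cyp2c44, Cyp2c50, Cyp2c54, Cyp2c67, Cyp2c68 and Cyp2c69), which were chosen by name and looked up among the 32285 features of each count matrix. Of these, 9 were found. Cyp2c44 is not among the feature names, and RefSeq lists that symbol as a synonym of Cyp2c23, which was reported apart from the 9 members together with the other 5 Cyp2c genes of the matrices. Values come from barcodes (the droplets' cell tags) with at least 200 detected genes and at most 50% mitochondrial counts, 8674 barcodes in all.

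Primary hepatocytes of wild-type (WT) mice, isolated by collagenase perfusion, were sequenced as single cells in droplets (10x 3′ chemistry), a method that counts each captured transcript by a unique molecular identifier (UMI). Before isolation the mice had spent 12 weeks on 1 of 3 regimens. ND stands for normal diet, HFD for the 60% high fat diet, and HFD_HDCA for that 60% HFD with 0.25% of a bile acid, hyodeoxycholic acid, mixed in. Each regimen had 1 library, so differences between libraries have no replicate check and carry no p-value, and the 95% intervals below cover counting error only. No source used here gives the number of mice per library, their sex or the hour of isolation, and diet cannot be told apart from anything else that differed between the libraries.

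Cyp2c enzymes insert oxygen into arachidonic acid to give epoxyeicosatrienoic acids, lipid mediators that act on vessels and on inflammation, and soluble epoxide hydrolase then opens the epoxide to a diol. The same enzymes clear many drugs, and in the liver they take electrons from P450 oxidoreductase and need haem. Many P450 genes are expressed most strongly by the hepatocytes around the central vein, and several Cyp2c genes are targets of the nuclear receptors CAR and PXR.

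The 9 members lie together on chromosome 19 (GRCm38, GENCODE release M21), each with 9 exons, between the start of Cyp2c29 at 39269405 and the end of Cyp2c50 at 40113950. Cyp2c37 (39992424 to 40012243, plus strand), Cyp2c54 (40037940 to 40073827, minus strand) and Cyp2c50 (40089688 to 40113950, plus strand) are neighbours, and so are Cyp2c67 (39608842 to 39649051) and Cyp2c68 (39688834 to 39741054), both on the minus strand. Cyp2c23 lies outside the cluster, at 44005022 to 44029208 on the minus strand. The neighbours are close copies. Coding sequences were 96.1% identical between Cyp2c37 and Cyp2c50, 95.2% between Cyp2c50 and Cyp2c54, and 97.2% between Cyp2c67 and Cyp2c68, within a range of 76.0% to 97.7% over the 36 pairs of members.

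The kit reads transcript ends, so the last 500 bases decide how well copies can be told apart. Of the 50-base stretches in that window, 51.2% in Cyp2c67 and in Cyp2c68 and 38.4% in Cyp2c69 occurred exactly in another Cyp2c transcript. The share was 30.4% in Cyp2c37, 27.5% in Cyp2c50 and 27.1% in Cyp2c54. Cyp2c29 and Cyp2c38 shared none of theirs, while 12.0% of those of Cyp2c39 occurred in the Cyp2c38 transcript. How the authors' counting treated reads that fit several genes is stated in no source used here. Such reads may have been assigned to a copy or dropped. Both the levels and the split of counts are thus uncertain within the Cyp2c37, Cyp2c50 and Cyp2c54 group and for Cyp2c67, Cyp2c68 and Cyp2c69. Reads of Cyp2c39 could fit Cyp2c38.

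Start-site sequences are shown for Cyp2c37, Cyp2c50, Cyp2c67 and Cyp2c68, because the levels of these copies are compared below. They come from the RefSeq promoter table (GRCm38.p6) and run, 5′ to 3′ on the gene's own strand, from 250 bases before to 50 after the start. Of the 9 members, 8 had an entry and Cyp2c54 had none. In the first pair, Cyp2c37 (chr19:39992174-39992473, plus strand) and Cyp2c50 (chr19:40089429-40089728, plus strand), capitals mark the 36 of 300 bases in each that were not matched when the pair was aligned, with 86.6% identity.
Cyp2c37: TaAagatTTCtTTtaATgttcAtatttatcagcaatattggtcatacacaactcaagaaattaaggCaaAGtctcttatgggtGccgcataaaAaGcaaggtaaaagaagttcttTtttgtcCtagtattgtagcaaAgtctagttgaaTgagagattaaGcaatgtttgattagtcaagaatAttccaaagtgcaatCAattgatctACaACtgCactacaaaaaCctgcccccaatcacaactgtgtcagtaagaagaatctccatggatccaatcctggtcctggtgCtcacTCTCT
Cyp2c50: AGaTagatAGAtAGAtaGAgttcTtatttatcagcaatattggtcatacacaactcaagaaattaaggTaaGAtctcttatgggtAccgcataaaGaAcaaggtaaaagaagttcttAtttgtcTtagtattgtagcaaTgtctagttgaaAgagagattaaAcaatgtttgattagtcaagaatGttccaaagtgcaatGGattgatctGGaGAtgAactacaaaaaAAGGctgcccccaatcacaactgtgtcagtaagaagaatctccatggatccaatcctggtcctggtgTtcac
The second pair is Cyp2c67 (chr19:39648993-39649292, minus strand) and Cyp2c68 (chr19:39741052-39741351, minus strand), with 65.9% identity when aligned end to end. The windows are offset, as the opening letters of the Cyp2c67 window lie inside that of Cyp2c68. Their unmatched ends count as gaps, so this value understates the likeness of the stretch they share. Capitals mark the letters CAAAGTCCA, a form of the HNF4 binding motif.
Cyp2c67: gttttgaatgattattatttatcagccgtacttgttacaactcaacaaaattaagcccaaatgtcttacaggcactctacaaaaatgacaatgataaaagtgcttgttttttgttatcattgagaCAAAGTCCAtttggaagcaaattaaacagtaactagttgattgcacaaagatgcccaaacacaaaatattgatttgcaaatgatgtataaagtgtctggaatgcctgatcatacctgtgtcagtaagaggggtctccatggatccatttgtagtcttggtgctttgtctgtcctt
Cyp2c68: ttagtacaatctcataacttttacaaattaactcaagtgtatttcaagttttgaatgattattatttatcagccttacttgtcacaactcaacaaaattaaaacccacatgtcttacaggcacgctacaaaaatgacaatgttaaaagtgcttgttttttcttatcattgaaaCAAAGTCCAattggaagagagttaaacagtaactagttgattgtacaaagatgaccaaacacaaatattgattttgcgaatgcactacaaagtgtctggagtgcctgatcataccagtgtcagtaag

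Both strands of each 300-base window were searched for 5 motifs. CAAAGTCCA began 125 bases before the start of Cyp2c67 and 77 before that of Cyp2c68. The letters around it are alike in both, so it sits in the stretch that the offset windows share. It was also present in Cyp2c69, and outside the members in Cyp2c40 and Cyp2c70, and it was held by 156 of 32851 promoters (0.475%). The DR4 and DR1 motifs, which are repeats of AGGTCA in the same direction (held by 0.0152% and 0.0396% of promoters), the palindromic HNF1 motif (0.00913%) and the D-box TTATGTAA (0.938%) were not found in the windows of the members. A match describes letters and is no evidence of binding.

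The filter retained 2776 of 5755 ND barcodes, 2898 of 6290 HFD barcodes and 3000 of 4873 HFD_HDCA barcodes, with 4274662, 3734740 and 5795200 nuclear-encoded UMIs and median depths of 944.5, 868 and 1116.5 UMIs. All 10 hepatocyte markers were detected in each library. The 3 libraries differed in other respects: over all barcodes the median mitochondrial share was 61.1% in ND, 63.1% in HFD and 14.5% in HFD_HDCA. Endothelial markers, all 10 of them detected in each library, summed to 382, 57.8 and 86.3 counts per 1000000 nuclear-encoded counts (CPM), Kupffer cell markers to 107, 117 and 107 CPM, and haemoglobin genes to 0, 342 and 26.2 CPM, while the 3 cholangiocyte markers had no count. Retained libraries shared 5 barcode sequences between HFD and ND and 1 in each of the other 2 pairs. Without the shared barcodes the log2 ratio of the summed members was 0.59 (HFD against ND), -0.07 (HFD_HDCA against HFD) and 0.52 (HFD_HDCA against ND), close to the values below.

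Summed over all retained barcodes, the members were higher in both high fat libraries than in the ND library. Within zones set by common boundaries, HFD was above ND beyond counting error in no zone, and HFD_HDCA only in the middle zone, as given below. Their counts in ND, HFD and HFD_HDCA were 6229, 8217 and 12158 UMIs, or 0.146%, 0.220% and 0.210% of nuclear-encoded counts. On the CPM scale the summed level was 1457 (1421 to 1494) in ND, 2200.2 (2153 to 2248) in HFD and 2098 (2061 to 2136) in HFD_HDCA. The sum was 1.51-fold higher in HFD than in ND (log2 ratio 0.59, 0.55 to 0.64), and HFD_HDCA stood 1.44-fold above ND (0.53, 0.48 to 0.57) and slightly below HFD (-0.07, -0.11 to -0.03). The direction of the last, small difference turned under 3 alternatives, with values of 0.026 when barcodes were thinned to 500 UMIs, weighted equally, or averaged over zones of the lobule.

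Behind this similar total the makeup of the family differed between the high fat libraries. Cyp2c50 was the most abundant member in both of them. It made up 34.1% of the family's counts in ND, 41.4% in HFD and 35.9% in HFD_HDCA. Cyp2c29 held 32.2%, 23.9% and 29.0%. Cyp2c54 held 15.0%, 17.0% and 8.46%, and Cyp2c37 held 8.03%, 9.55% and 16.6%. Cyp2c37 and Cyp2c54 thus exchanged places between HFD and HFD_HDCA, with Cyp2c54 ahead in ND and HFD and Cyp2c37 ahead in HFD_HDCA.

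**Figure D1:**
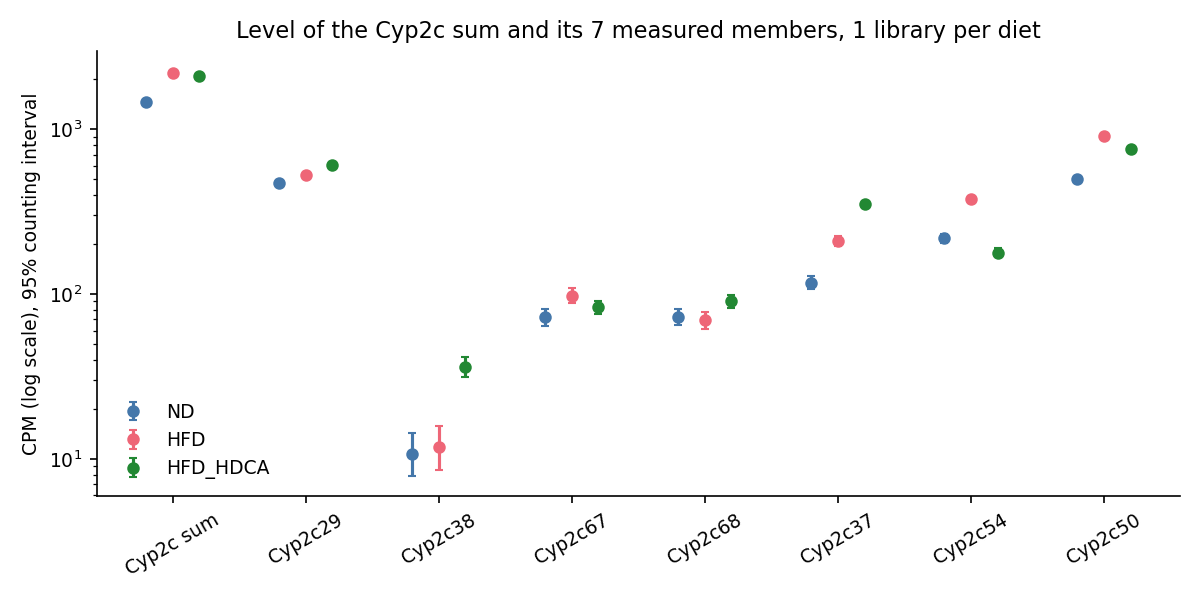
Level of the summed members and of the 7 members with at least 100 summed counts in the ND, HFD and HFD_HDCA libraries, in CPM on a log axis; each point is 1 library and bars are exact Poisson 95% intervals of counting, which are smaller than the points for abundant genes. Cyp2c50 and Cyp2c29 lie highest, Cyp2c37 and Cyp2c38 are highest in HFD_HDCA, and Cyp2c54 is highest in HFD (374 CPM) and lowest in HFD_HDCA (177 CPM).

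Cyp2c29 and Cyp2c38 lie at the start of the cluster, with coding sequences 89.1% identical, and both encode arachidonic acid epoxygenases. Cyp2c29 was counted 2004 times in ND, 1967 in HFD and 3524 in HFD_HDCA, which gave 469 (449 to 490), 527 (504 to 550.5) and 608 (588 to 629) CPM. The 3 intervals do not overlap, and the level was lowest in ND and highest in HFD_HDCA. The differences were small. The log2 ratio was 0.17 (0.08 to 0.26) between HFD and ND and 0.21 (0.13 to 0.29) between HFD_HDCA and HFD. The first of these depended on how cells were weighted, with -0.05 when each barcode counted equally and -0.29 when each zone did.

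Cyp2c38 was a minor member, and of the measured members it had the highest fold of HFD_HDCA over each of the other libraries. Its counts were 46, 44 and 209 UMIs in the same order, or 10.8 (7.88 to 14.4), 11.8 (8.56 to 15.8) and 36.1 (31.3 to 41.3) CPM. ND and HFD overlapped and HFD_HDCA stood above both. Against HFD it was 3.03-fold higher in HFD_HDCA (log2 ratio 1.60, 1.14 to 2.12), and against ND 3.32-fold higher (1.73, 1.28 to 2.24), while HFD against ND gave 0.13 (-0.50 to 0.76), which is not a detectable difference at this depth. Cyp2c39, which encodes a retinoic acid hydroxylase and is the neighbour of Cyp2c38 with 94.2% coding identity to it, was near absent from the counts, with 1, 1 and 2 UMIs.

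Cyp2c37, Cyp2c50 and Cyp2c54 are the group of near-identical copies, and they include known arachidonic acid epoxygenases. Cyp2c37 was counted 500 times in ND, 785 in HFD and 2022 in HFD_HDCA, giving 117 (107 to 128), 210 (196 to 225) and 349 (334 to 365) CPM. The level was stepwise higher from ND to HFD to HFD_HDCA with no overlap. It was 1.80-fold higher in HFD than in ND (log2 ratio 0.85, 0.68 to 1.01), 1.66-fold higher in HFD_HDCA than in HFD (0.73, 0.61 to 0.85) and 2.98-fold higher in HFD_HDCA than in ND (1.58, 1.43 to 1.72). The share of barcodes with a Cyp2c37 UMI was 9.94% in ND, 16.1% in HFD and 30.5% in HFD_HDCA.

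Cyp2c50 was highest in HFD. Its 2124, 3401 and 4369 UMIs gave 497 (476 to 518) CPM in ND, 911 (880 to 942) in HFD and 754 (732 to 777) in HFD_HDCA. The HFD level was 1.83-fold that of ND (log2 ratio 0.87, 0.80 to 0.95), and HFD_HDCA lay between the other 2 libraries, at -0.27 (-0.34 to -0.21) against HFD. Cyp2c54 followed the same order between ND and HFD and went further below in HFD_HDCA. Its 932, 1397 and 1028 UMIs gave 218 (204 to 232), 374 (355 to 394) and 177 (167 to 189) CPM. The log2 ratio was 0.78 (0.66 to 0.90) for HFD against ND, -1.08 (-1.19 to -0.96) for HFD_HDCA against HFD and -0.30 (-0.43 to -0.17) for HFD_HDCA against ND. HFD_HDCA thus held the lowest level of Cyp2c54 and the highest of Cyp2c37. The HFD_HDCA against HFD value of Cyp2c54 was under 2-fold when barcodes were thinned (-0.84), when they were weighted equally (-0.87) and when zones were (-0.95).

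Cyp2c67, Cyp2c68 and Cyp2c69 are the other group of copies. Cyp2c67 was counted 308, 364 and 482 times, giving 72.1 (64.2 to 80.6) CPM in ND, 97.5 (87.7 to 108) in HFD and 83.2 (75.9 to 90.9) in HFD_HDCA. Cyp2c68 was counted 309, 258 and 522 times, giving 72.3 (64.5 to 80.8), 69.1 (60.9 to 78.0) and 90.1 (82.5 to 98.1) CPM. Their levels lay within counting error of each other in ND and in HFD_HDCA. In HFD, Cyp2c67 was the higher of the pair, and the log2 ratio of HFD against ND was 0.44 (0.21 to 0.66) for Cyp2c67 and -0.06 (-0.31 to 0.18) for Cyp2c68. Against HFD, HFD_HDCA gave -0.23 (-0.43 to -0.03) and 0.38 (0.16 to 0.60). Cyp2c69 had 5 UMIs in ND and none in HFD or HFD_HDCA, where a count of 0 allows up to 0.803 and 0.518 CPM and a UMI in up to 0.104% and 0.1% of barcodes, against 1.17 CPM in ND.

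Ordered by level, the members ran Cyp2c50, Cyp2c29, Cyp2c54, Cyp2c37, Cyp2c68, Cyp2c67 and Cyp2c38 in ND, where the intervals of the first pair and of Cyp2c68 and Cyp2c67 overlapped. In HFD all neighbours in the order Cyp2c50, Cyp2c29, Cyp2c54, Cyp2c37, Cyp2c67, Cyp2c68 and Cyp2c38 were apart by more than counting error. In HFD_HDCA the order was Cyp2c50, Cyp2c29, Cyp2c37, Cyp2c54, Cyp2c68, Cyp2c67 and Cyp2c38, with overlap only between Cyp2c68 and Cyp2c67. UMIs of a 3′ kit count molecules, so these levels carry no transcript length. Any loss of reads shared between copies is not covered by the intervals.

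Of the 7 members measured, meaning at least 100 summed counts over the 3 libraries, none differed 2-fold between HFD and ND, where 6.38% of the 7855 measured genes did (2.85% higher and 3.53% lower in HFD). The median log2 ratio of the 7 was 0.44, against -0.06 over all measured genes, with 6 above 0. Between HFD_HDCA and HFD, 2 members were past 2-fold, Cyp2c38 higher and Cyp2c54 lower, where 3.11% of all measured genes were past it (1.63% higher and 1.48% lower). The median was 0.21 against 0.05 over all genes, and thinning barcodes to 500 UMIs left 0 members past 2-fold, with Cyp2c54 at -0.84 and Cyp2c38, at 1.12, under the count minimum. Between HFD_HDCA and ND, 2 members were past 2-fold, Cyp2c37 and Cyp2c38, both higher, where 5.59% of all genes were past it (2.62% higher and 2.97% lower), and the median was 0.38 against -0.01, with 1 member, Cyp2c37, past 2-fold after thinning, when Cyp2c38 again had too few counts. These comparisons share libraries and are not independent of each other. Within zones set by common boundaries, the ratios of Cyp2c37 and Cyp2c38 for HFD_HDCA against ND were past 2-fold only in the middle zone, as given below.

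**Figure D2:**
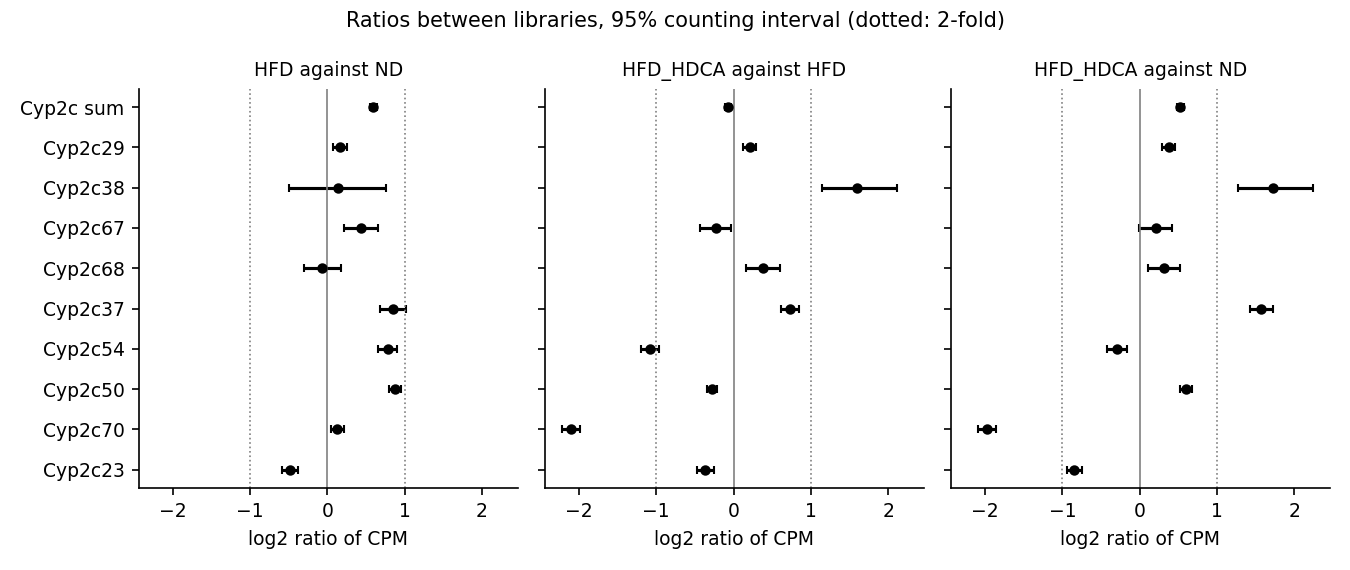
Log2 ratio of CPM of the summed members, the 7 measured members, Cyp2c70 and Cyp2c23 in HFD against ND, HFD_HDCA against HFD and HFD_HDCA against ND, with exact conditional binomial 95% intervals of counting; dotted lines mark 2-fold. In HFD_HDCA against HFD, Cyp2c38 (1.60) and Cyp2c37 (0.73) lie to the right of 0 and Cyp2c54 (-1.08) to the left, while the sum is near 0 (-0.07).

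The other Cyp2c genes showed other orders of the libraries. Cyp2c23, the gene RefSeq also calls Cyp2c44 and itself an arachidonic acid epoxygenase, had levels of 466 (446 to 487), 334 (315 to 353) and 259 (246 to 272) CPM in ND, HFD and HFD_HDCA. It was thus highest in ND, where the summed members were lowest, with a log2 ratio of -0.48 between HFD and ND and of -0.37 between HFD_HDCA and HFD. Adding Cyp2c23 to the sum lowered the log2 ratio of HFD against ND to 0.40 and that of HFD_HDCA against ND to 0.29. Cyp2c70, which makes muricholic acids in the mouse, was at 563 and 616 CPM in ND and HFD and at 144 in HFD_HDCA, 4.28-fold below HFD (log2 ratio -2.10, -2.22 to -1.98). Cyp2c40 had 10, 3 and 4 UMIs and Cyp2c55 had 30, 8 and 10.

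At least 1 UMI of any member was found in 63.9% of ND barcodes, 60.5% of HFD barcodes and 74.4% of HFD_HDCA barcodes. At an equal depth of 500 UMIs per barcode, leaving out 339, 925 and 179 shallower barcodes, the shares were 44.9%, 50.3% and 57.3%. The same barcodes before thinning gave 64.9%, 64.8% and 75.7%, so leaving out shallow barcodes removed the difference between ND and HFD, and thinning the rest put HFD above ND. Most barcodes showed few members. Exactly 1 of the 9 was detected in 35.4%, 27.7% and 27.0% of barcodes, no barcode showed more than 7, and the barcodes with 5 members had median depths of 3876.5, 2959 and 4063 UMIs.

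Free RNA sets a background in droplet data, and it was read from barcodes with at least 3 UMIs of endothelial markers, cells that should lack these enzymes. There were 94 of them in ND, 19 in HFD and 33 in HFD_HDCA, with median depths of 993.5, 709 and 856 UMIs. The summed members were at 705 (549 to 892), 508 (219.5 to 1002) and 446 (249.8 to 736) CPM in these barcodes, and 40.4%, 26.3% and 36.4% of them had a member UMI. Barcodes with at least 3 UMIs of Kupffer cell markers, 18, 18 and 26 in number, gave 466 (213 to 884), 259 (84.0 to 604) and 330.2 (158 to 607) CPM. In the other retained barcodes, those under 3 UMIs of all non-hepatocyte markers, which had median depths of 941, 872 and 1123 UMIs, the shares were 64.9%, 61.0% and 75.4%. Those barcodes held albumin (Alb), a hepatocyte marker, at 55926, 45057 and 54600 CPM in ND, HFD and HFD_HDCA. Alb was at 13335, 25106.5 and 21835.5 CPM in the endothelial-marker barcodes and at 9466, 4190 and 7298 CPM in the Kupffer-marker ones. Doublets were not removed, so both marker groups may hold hepatocyte RNA beyond free RNA. Shares and levels of the barcodes under 3 UMIs of such markers were above this background. A low level in any subset of them cannot be read as expression below about these values.

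To place the members along the liver lobule, each barcode without such markers was given a zone score, the mean standardised level of 8 pericentral landmark genes minus that of 9 periportal ones, none of them a Cyp2c gene. Barcodes of each library were split by score into 3 bins of equal size, called the periportal, middle and pericentral zone. A zone is a range of a score and not a cell type, and at each boundary 192 to 310 barcodes of a library lay within 0.1 of it. Median depth differed between zones, at 2566, 758 and 764 UMIs from periportal to pericentral in ND, 1904, 599 and 960 in HFD, and 2700, 866 and 1172 in HFD_HDCA.

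The family was pericentral in every library. The summed level was 436, 1601 and 3807 CPM from periportal over middle to pericentral in ND, 401, 2159 and 4539.5 in HFD, and 496, 2460.4 and 4273 in HFD_HDCA. The pericentral zone was 8.72-fold above the periportal one in ND (log2 ratio 3.12, 3.02 to 3.23), 11.3-fold in HFD (3.50, 3.38 to 3.62) and 8.61-fold in HFD_HDCA (3.11, 3.02 to 3.19). The periportal levels lay within the interval of the Kupffer-marker barcodes in each library. They lay below the interval of the endothelial-marker barcodes in ND and within it in HFD and HFD_HDCA. On the CPM scale they thus cannot be told apart from this background, which may hold more than free RNA. Median depth was higher in the periportal barcodes, at 2566, 1904 and 2700 UMIs, than in the endothelial-marker ones, at 993.5, 709 and 856. A comparison of CPM at unlike depth cannot decide what part of the periportal level is free RNA. Thinned to equal depth and zoned again, the log2 ratios were 1.81 in ND, 3.28 in HFD and 1.96 in HFD_HDCA.

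All measured members shared this direction, to different degrees. The pericentral zone was at least 2-fold higher for 5 of 6 measured members in ND, where 2.66% of genes were, for 6 of 6 in HFD, where 2.56% were, and for 7 of 7 in HFD_HDCA, where 2.49% were. The exception was Cyp2c68 in ND, with a log2 ratio of 0.99. Median log2 ratios over the measured members were 2.55, 3.21 and 2.77, against 0.11, 0.06 and 0.06 over all genes measured.

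Cyp2c29 had the steepest gradient of the abundant members. It was at 40.0, 400.2 and 1558 CPM across the zones of ND, 35.2, 330.2 and 1269.9 of HFD, and 74.6, 588 and 1422 of HFD_HDCA. Log2 ratios of pericentral against periportal were 5.28, 5.16 and 4.25. Cyp2c37 came next, with 4.02, 4.39 and 3.45. The periportal levels in these ratios are no higher than the upper limits of the endothelial-marker barcodes, and differences in steepness between libraries were not tested. Cyp2c38 had 1, 1 and 18 periportal UMIs, too few for a precise gradient, and pericentral levels of 38.5, 28.2 and 84.3 CPM.

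Cyp2c50 and Cyp2c54 were pericentral to a lesser degree, with log2 ratios of 2.61, 3.15 and 2.77 for Cyp2c50 and 2.49, 3.28 and 2.46 for Cyp2c54. In HFD_HDCA, Cyp2c54 had levelled off by the middle zone, at 286 CPM there and 295 in the pericentral zone (log2 ratio 0.05, -0.15 to 0.25), whereas the pericentral zone was above the middle one by 0.53 in ND and 0.81 in HFD. Cyp2c67 and Cyp2c68 were the least zoned. Cyp2c68 ran from 53.0 to 105 CPM in ND, 35.2 to 104 in HFD and 52.7 to 139 in HFD_HDCA, and Cyp2c67 from 49.5 to 127, 34.6 to 174 and 31.2 to 150.05. Cyp2c23 leaned the other way, with log2 ratios of -0.46, -0.42 and -0.52.

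In a finer split into 6 bins of the score the level was higher in each step to the end of the scale. The step from bin 4 (1702 to 1961 CPM) to bin 5 (1785 to 2060 CPM) in ND lay within counting error. From the most periportal to the most pericentral bin the sum was at 329, 606, 1378, 1828, 1918 and 5086 CPM in ND, 160, 885, 1914, 2395, 3438 and 5319 in HFD, and 211, 1277, 2212, 2695, 3123 and 4983 in HFD_HDCA. On the CPM scale most of the difference in ND lay in the last bin, and in the high fat libraries the steps were more even. As a ratio, the ND difference between bins 1 and 3 (329 and 1378 CPM) was larger than the last step (1918 and 5086 CPM). Barcodes with a UMI of Glul, glutamine synthetase, which marks the cells next to the central vein, gave sums of 3880, 3033 and 3265 CPM in 91, 278 and 325 barcodes. Barcodes without one gave 1340.1, 2085 and 1942 CPM. Median depths were 2133, 2051.5 and 1573 UMIs with a Glul UMI and 924, 831 and 1088 without, so this split also sorts barcodes by depth. The sums with a Glul UMI were below those of the last bin in each library.

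**Figure D3:**
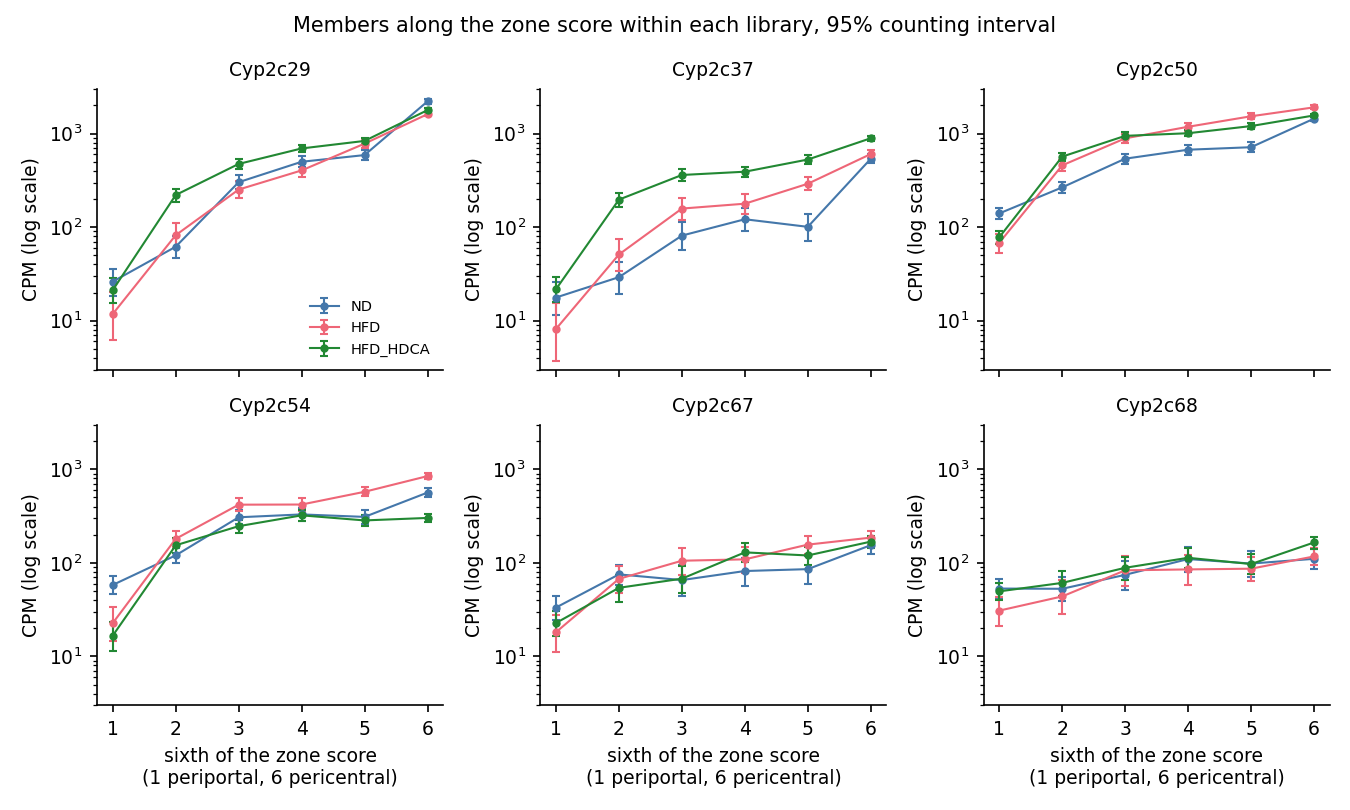
Level in CPM (log axis) of 6 members in 6 equal bins of the zone score, from the most periportal (1) to the most pericentral (6), in each library, with exact Poisson 95% intervals of counting. Cyp2c29 spans the widest range, reaching 2212, 1616 and 1784 CPM in bin 6 of ND, HFD and HFD_HDCA, Cyp2c68 stays in a narrow one, and Cyp2c54 levels off in HFD_HDCA.

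When libraries were compared zone by zone, the difference of the sum between HFD and ND was smaller in each zone than over all barcodes. HFD against ND gave log2 ratios of -0.12 (-0.27 to 0.02) in the periportal, 0.43 (0.33 to 0.54) in the middle and 0.25 (0.19 to 0.31) in the pericentral zone, against 0.59 over all barcodes, and 0.28 when the zones were weighted equally. HFD_HDCA against ND gave 0.18 (0.07 to 0.30), 0.62 (0.53 to 0.71) and 0.17 (0.11 to 0.22), so the middle zone was above the 0.53 over all barcodes and the other zones below it. Pericentral barcodes held 23.7% of nuclear-encoded counts in the zones of ND, 35.5% in HFD and 32.1% in HFD_HDCA, so pericentral cells weighed more in the totals of the high fat libraries. With boundaries common to the 3 libraries, 14.5% of ND, 39.7% of HFD and 44.2% of HFD_HDCA barcodes were pericentral, and the order of the libraries turned in the outer zones. HFD against ND then gave -0.95 (-1.10 to -0.80), 0.04 (-0.06 to 0.15) and -0.31 (-0.37 to -0.24), and HFD_HDCA against ND -0.90 (-1.03 to -0.78), 0.13 (0.04 to 0.22) and -0.42 (-0.49 to -0.36). A different mix of zones and a different level of the landmarks themselves cannot be told apart here. Zones split within a library hold equal numbers of barcodes, so their shares of counts describe counts per barcode and not numbers of cells. With common boundaries the numbers of barcodes differ as well, and the part of each in the sums was not tested.

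Cyp2c29 was the clearest case. Over all barcodes it was higher in HFD than in ND (0.17), but within zones HFD was lower or not distinguishable, at -0.18 (-0.68 to 0.30), -0.28 (-0.52 to -0.04) and -0.29 (-0.40 to -0.19) from periportal to pericentral. With common boundaries the values were -1.81, -0.94 and -1.01, and -1.31, -0.29 and -0.87 for HFD_HDCA against ND. Cyp2c50 kept a higher HFD level in the middle zone (0.78, 0.62 to 0.94) and the pericentral zone (0.61, 0.50 to 0.71) and not in the periportal one (0.07, -0.15 to 0.27). Cyp2c54 gave -0.13 (-0.47 to 0.21), 0.39 (0.16 to 0.63) and 0.67 (0.51 to 0.83), and Cyp2c37 gave 0.02 (-0.63 to 0.66), 0.73 (0.33 to 1.15) and 0.39 (0.20 to 0.58). Common boundaries turned the pericentral value of Cyp2c37, which was then -1.07, 0.53 and -0.41 (-0.61 to -0.21). They left Cyp2c50 at -0.65, 0.36 and 0.19 and Cyp2c54 at -1.27, 0.32 and 0.30, above 0 in the middle and pericentral zones and below it in the periportal one. For HFD_HDCA against ND, common boundaries gave Cyp2c37 0.32 (-0.12 to 0.77), 1.51 (1.20 to 1.85) and 0.24 (0.06 to 0.42). Cyp2c38 then gave 0.88 (-1.40 to 3.65), 1.14 (0.19 to 2.26) and 0.38 (-0.16 to 1.01).

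The opposite directions of Cyp2c37 and Cyp2c54 in HFD_HDCA against HFD were also present within the middle and pericentral zones. Cyp2c37 was higher in HFD_HDCA there, with log2 ratios of 1.16 (0.87 to 1.46) and 0.67 (0.53 to 0.80), and of 0.99 and 0.65 with common boundaries. Cyp2c54 was lower, at -0.55 (-0.78 to -0.32) and -1.31 (-1.47 to -1.16), and at -0.77 and -1.23 with common boundaries. In the periportal zone the counts gave 1.60 (1.10 to 2.16) for Cyp2c37, from 22.4 and 68.6 CPM, and -0.49 (-0.85 to -0.14) for Cyp2c54, from 75.2 and 53.4 CPM. These levels lie within the intervals of the endothelial-marker barcodes. Those reach 354 CPM in HFD for both genes, and 166 CPM for Cyp2c37 and 109.7 CPM for Cyp2c54 in HFD_HDCA. They rest on 1 UMI of each gene in HFD, and on 1 UMI of Cyp2c37 and 0 of Cyp2c54 in HFD_HDCA. Intervals this wide cannot decide what part of the periportal ratios is free RNA. The pericentral level of Cyp2c54 was 734 CPM in HFD and 295 in HFD_HDCA, while that of Cyp2c37 was 475 and 754. Cyp2c38 was higher in the middle (1.79, 0.63 to 3.43) and pericentral zone (1.56, 1.05 to 2.14). Cyp2c29 was higher by 0.83 in the middle and by 0.16 in the pericentral zone. Its periportal ratio was 1.08, from levels within intervals of the endothelial-marker barcodes that rest on 1 UMI in HFD and 3 in HFD_HDCA.

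**Figure D4:**
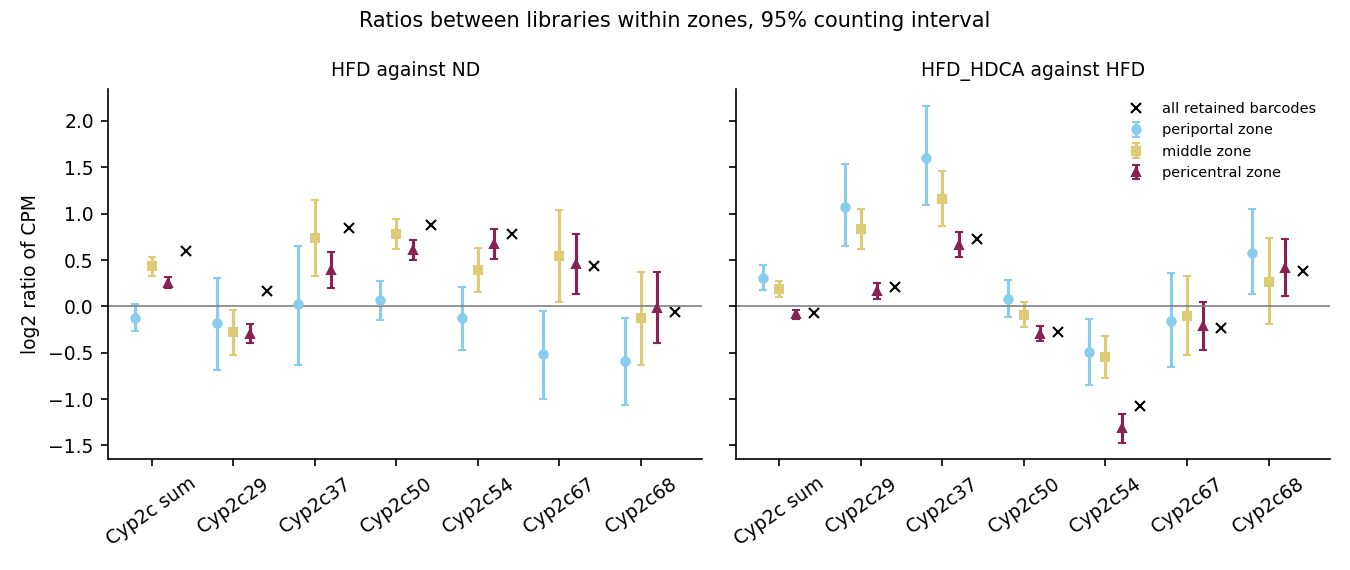
Log2 ratio of CPM within the periportal, middle and pericentral zone for the sum and the 6 members other than Cyp2c38 that were measured, in HFD against ND (left) and HFD_HDCA against HFD (right), with exact conditional binomial 95% intervals; crosses give the ratio over all retained barcodes. Cyp2c29 in HFD against ND is below 0 in each zone (-0.18, -0.28 and -0.29) and above 0 over all barcodes (0.17). In HFD_HDCA against HFD, Cyp2c37 is above 0 and Cyp2c54 below 0 in the middle and pericentral zones. Periportal levels are no higher than the upper limits of the endothelial-marker barcodes.

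Over the 9 combinations of library and zone, the log2 level of each member was compared with that of the summed other members. Pearson's r was highest for Cyp2c50 (0.979) and Cyp2c29 (0.970) and lowest among the measured members for Cyp2c38 (0.864) and Cyp2c54 (0.914). Among 1358 other genes of at least 100 CPM, the patterns most like the sum were those of Cdo1 (r = 0.986), which starts cysteine breakdown, Cyb5a (0.983), cytochrome b5, which passes electrons to P450 enzymes, Tst (0.977), a sulfur transferase, Hpgd (0.963), which inactivates prostaglandins, and Entpd5 (0.957), a nucleotide hydrolase. The 9 points share 3 libraries and 1 score, so these values are a description. Cyb5a ran from 1733 to 3389 CPM across the zones of ND, and Hpgd from 89.1 to 221 CPM.

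Genes that act before and after the Cyp2c step were counted from lists. Of all genes with enough counts, 2.85% lay past 2-fold on the higher side and 3.53% on the lower side in HFD against ND, 1.63% and 1.48% in HFD_HDCA against HFD, and 2.62% and 2.97% in HFD_HDCA against ND, with medians of -0.06, 0.05 and -0.01, and each list is to be read beside these. Of 9 other epoxygenases and epoxide hydrolases, 5 were measured. Against ND, HFD had none past 2-fold on the higher side and 2 on the lower side, with a median log2 ratio of 0.15 beside -0.06 over all genes. The lower ones were Ephx1, microsomal epoxide hydrolase, at 175 CPM in ND and 80.1 in HFD (-1.13, -1.33 to -0.93), and Cyp2j9, with 41 and 13 UMIs. Ephx2, soluble epoxide hydrolase, was at 361, 569 and 493 CPM and was higher in HFD than in ND by 0.66, and the epoxygenase Cyp2j5 was at 418, 620.1 and 564 CPM. Against HFD, HFD_HDCA had 1 higher, Cyp2j9 with 51 UMIs, and none lower.

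The list for arachidonate supply and its other routes had 14 of 25 genes measured. HFD against ND had 1 higher, Fads2, the desaturase at the start of arachidonate synthesis, at 164 and 587 CPM (log2 ratio 1.84, 1.72 to 1.97), and 1 lower, the phospholipase gene Pla2g12a (-1.02). HFD_HDCA against HFD had none past 2-fold in either direction. HFD_HDCA against ND had 3 higher, Fads2 (1.90), Fads1 (1.29) and the elongase gene Elovl2 (1.08), and none lower, beside 2.62% and 2.97% of all genes. In the P450 electron transfer and haem list all 10 genes were measured. Against ND, HFD had 2 higher and none lower. Alas1, the first enzyme of haem synthesis, had levels of 45.1, 428 and 277 CPM in ND, HFD and HFD_HDCA, and Por, the electron donor of the Cyp2c enzymes, had 71.1, 257 and 148 CPM. The medians of that list were 0.07, -0.04 and 0.23 in the 3 comparisons.

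Among regulators of P450 genes and of the daily rhythm, 20 of 21 were measured, with 5 higher and 1 lower in HFD against ND (median 0.26, beside 2.85% and 3.53% of all genes), none past 2-fold in HFD_HDCA against HFD (median -0.03), and 4 higher and 2 lower in HFD_HDCA against ND (median 0.47). Dbp, a clock output factor, was at 12.4, 71.5 and 102 CPM, its relative Tef at 37.2, 95.1 and 99.0, Cebpb, a liver transcription factor, at 297, 1198 and 817, and Bcl6, a repressor, at 115, 21.2 and 16.4. Dbp oscillates strongly over the day in the liver, and the isolation times are not given. Among receptor genes, Ahr, the aryl hydrocarbon receptor, was at 23.4, 56.2 and 54.5 CPM and Ppara, a fatty acid sensor, at 42.3, 98.0 and 74.2, both over 2-fold higher in HFD than in ND. Nr1i3 (CAR) was at 66.7, 87.6 and 114 CPM, Nr1i2 (PXR) at 27.1, 32.7 and 22.3, and Hnf4a at 223, 217 and 213. The part of isolation time in the Cyp2c differences was not tested.

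Targets of CAR and PXR outside the family showed no single order of libraries. Of 11 listed, 7 were measured, with 1 higher and 2 lower in HFD against ND (2.85% and 3.53% of all genes) and none past 2-fold in HFD_HDCA against HFD (1.63% and 1.48%). Cyp3a11, a main drug-oxidising enzyme, had levels of 4489.7, 107 and 179 CPM, the carboxylesterase gene Ces2a 216, 80.6 and 52.5, Cyp2a5 43.7, 142 and 161, and Aldh1a1, a retinaldehyde dehydrogenase, 661, 1013 and 1348. Cyp3a11 and Cyp2a5 have near-identical relatives, so their counts are uncertain in the same way as those of the Cyp2c copies.

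Among genes whose liver level is higher in male than in female mice, more were past 2-fold between HFD_HDCA and HFD than between HFD and ND. Of 10 male-biased genes, all measured, 6 were at least 2-fold lower in HFD_HDCA than in HFD and none higher, where 1.48% of all genes were lower, with a median log2 ratio of -1.18. Selenbp2 was at 505 CPM in HFD and 3.28 in HFD_HDCA, and Hsd3b5, a steroid dehydrogenase, at 106 and 15.0. The same list had 3 lower and 1 higher in HFD against ND, beside 3.53% and 2.85% of all genes, with a median of -0.04. One of the lower ones, Cyp4a12a, was at 308, 105 and 88.7 CPM in ND, HFD and HFD_HDCA. Of 13 female-biased genes, 3 had enough counts, and these had them through the HFD_HDCA library, so no count over them is given as support. Cyp2b9 had 1, 19 and 1190 UMIs in ND, HFD and HFD_HDCA, Acot3 had 13, 14 and 250, and Cyp2a4 had 3, 1 and 108. Under the count minimum, Cyp2b13 (0, 0 and 81), Hao2 (0, 1 and 35) and A1bg (0, 0 and 1) were also most counted in HFD_HDCA. Cyp2c40 (10, 3 and 4) and Cyp3a44 (2, 0 and 0) were most counted in ND, and the rest of the list had no UMI. Several Cyp2c genes are known to differ by sex in mice, and the sex of the animals is not given, so the differences of Cyp2c37, Cyp2c38 and Cyp2c54 in HFD_HDCA cannot be told apart from any other feature of that library.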

How the data were processed

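Hepatocytes of 3 diet groups were measured, 1 library each. The deposited values are raw UMI counts per gene and barcode, made by the authors with Cell Ranger 5.0.0 per the file headers, on genome build mm10 per the submitters' processing notes. How barcodes were chosen for the matrices and how reads fitting several genes were counted is not given in the sources used here, and doublets were not removed. The members, gene lists, landmarks, thresholds and rules were chosen with earlier results of these data known.

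Counts of retained barcodes were summed per library and divided by all nuclear-encoded counts. Log2 ratios were taken after adding 0.5 to each count. Intervals are exact conditional binomial for ratios, exact Poisson for CPM and exact binomial for shares, at 95%. A count of 0 was given the limit of 3 counts. Genes with at least 100 summed counts were measured, and 2-fold was the size rule. With 1 library per group, no test was run.

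Zone scores used counts scaled to 10000 per barcode, log-transformed and standardised within the library. Pericentral landmarks were Cyp2e1, Cyp1a2, Oat, Gulo, Lect2, Slc1a2, Glul and Rgn, and periportal ones Cyp2f2, Hal, Sds, Hsd17b13, Ass1, Cps1, Gls2, Aldh1b1 and Pck1. Barcodes with at least 3 UMIs of 35 non-hepatocyte markers stayed out of the zones. Genes measured in a zone comparison had at least 100 counts over the zones of the library and were no landmarks.

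Genes named besides the members are those of each list past 2-fold, at most 4 per comparison by absolute log2 ratio, and the 5 with the highest r, taken on log2(CPM + 10) and leaving out members, landmarks, mitochondrial, ribosomal protein and unnamed genes. Ephx2, Cyp2j5, Ahr, Ppara, Nr1i2, Nr1i3 and Hnf4a fall outside that rule and were named after their values were seen. Per-library depths stand in the text. The ratio calculation was tested on simulated data. Software was Python 3.11.15, numpy 2.4.6, pandas 2.3.3, scipy 1.17.1, matplotlib 3.10.9 and Biopython 1.88. Gene positions come from GENCODE M21, promoters from RefSeq.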

Additional observations from a re-analysis of the deposited data

Results flagged for a closer look

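Several comparisons differed in sign between zones of the lobule, with no test of the difference itself, and zones of 1 library are not replicates. The sum of the members in HFD_HDCA against HFD had log2 ratios of 0.31 in the periportal, 0.19 in the middle and -0.087 in the pericentral zone. Cyp2c29 in HFD_HDCA against ND gave 0.89, 0.55 and -0.13 in the same order. Cyp2c67 in HFD against ND gave -0.51, 0.54 and 0.45. Cyp2c70 in HFD against ND gave -0.25, 0.23 and 0.53, and its pericentral against periportal ratio was -0.23 in ND, 0.55 in HFD and 0.77 in HFD_HDCA. None of these differences was tested.

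Member counts were also present in the barcodes left out by the filter, which enter no comparison. The summed members were at 1738 (1631 to 1849) CPM in the left-out barcodes of ND, 2018 (1893 to 2149) of HFD and 1741 (1618 to 1870) of HFD_HDCA, above the 446 to 705 CPM of the endothelial-marker barcodes. Against the retained barcodes this was higher in ND (1457) and lower in HFD (2200.2) and HFD_HDCA (2098), and the left-out barcodes of ND and HFD_HDCA did not differ beyond counting error.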

How the results depend on the processing

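Each library comparison of the sum was recomputed under 12 alternatives, of which equal weight per zone, adding Cyp2c23 and leaving out shared barcodes were chosen after seeing the data. HFD against ND (0.59) stayed above 0 in each, with 0.66 under size factors, 0.48 thinned to 500 UMIs, 0.38 with barcodes weighted equally, 0.67 at 20% mitochondrial counts, 0.68 at 500 genes, 0.28 with zones weighted equally and 0.40 with Cyp2c23. HFD_HDCA against ND (0.53) also stayed above 0 in these sums over zones. Neither it nor HFD against ND did so in the periportal and pericentral zones of common boundaries. HFD_HDCA against ND gave 0.57 scaled to all counts, 0.41 by barcode, 0.58 at 20% mitochondrial counts, 0.59 at 500 genes, 0.48 over all deposited barcodes, 0.31 by zone and 0.29 with Cyp2c23. HFD_HDCA against HFD (-0.07) gave -0.027 scaled to all counts and -0.13 under size factors, and turned to 0.026 when thinned, by barcode and by zone. The members past 2-fold numbered 1 in HFD against ND at 500 genes (Cyp2c50, 1.01). In HFD_HDCA against HFD they numbered 0 when thinned and 1 by barcode, by zone (Cyp2c54 lost in each) or at 500 summed counts (Cyp2c38 not measured), and in HFD_HDCA against ND 1 when thinned or at 500 summed counts, where fewer genes are measured. Among single members in HFD against ND, Cyp2c29 turned to -0.054 by barcode and -0.29 by zone, Cyp2c38 to -0.039 and -0.31, and Cyp2c68 to 0.00016 under size factors. The zone ratio of the sum was 3.01 in ND with fewer landmarks and 1.81 thinned. In HFD it was 3.83 with pooled boundaries, 3.75 from the share of landmark counts, 3.28 thinned and 3.81 at 20% mitochondrial counts. In HFD_HDCA it was 3.67 with pooled boundaries and 1.96 thinned. Beyond fewer genes or barcodes where stated, the cause was not tested. No paired analysis was possible because each group has 1 library. With 1 library each, depth limits counting precision only, and members under 100 summed counts (Cyp2c39 and Cyp2c69) carry no comparison.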
